A study of Mus musculus with 9 samples.

Results

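The genes described here are the nuclear-encoded subunits of the oxidative phosphorylation system that primary mouse cortical neurons expressed in normal oxygen, in low oxygen and in low oxygen with thyroid hormone. They were chosen by symbol: names that begin with Nduf and a subunit letter and number, the 4 Sdh genes, and names that begin with Uqcr, Cox4 to Cox8 or Atp5. Of 84 such symbols among the 24054 rows of the deposited table, 77 had a value above 1 in at least 3 of the 9 libraries and are called members here, and 12923 genes in all passed the same filter. The members are 35 genes of complex I, 4 of complex II, 8 of complex III, 13 of complex IV (Ndufa4 counted there) and 15 of complex V. The other two, Atp5s and Atp5sl, match by name but are not structural subunits of the ATP synthase. The 7 symbols below the threshold were Cox4i2, Cox6b2, Cox7a1, Cox7b2, Cox8b, Cox8c and Ndufa4l2. Every member stood above 1 in all 9 libraries, the lowest at 3.90 CPM (Cox6a2), while the highest value among the 7 others was 0.528 CPM (Cox6b2).

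All 3 groups were wild-type C57BL/6 neurons used after 6 days in culture. Normoxia is the untreated control, hypoxia is 0.2% oxygen for 7 hours, and hypoxia with T3 is the same exposure with 10 nM triiodothyronine in the medium. Each group had 3 libraries of polyadenylated RNA made with a stranded kit. They are called here by the numbers of their column headers: normoxia 1 to 3, hypoxia 7 to 9 and T3 11 to 13. Whether libraries with the same treatment are separate cultures is not given in the sources used here, so the spread that p-values are measured against may be technical. T3 in normal oxygen is not analysed here.

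Oxidative phosphorylation passes electrons from NADH (complex I) and succinate (complex II) through complex III to oxygen at complex IV, and complex V, the ATP synthase, makes ATP with the proton gradient that complexes I, III and IV build. Complexes I, III, IV and V also hold subunits made inside the mitochondrion, which are not analysed here, while all of complex II is made from nuclear genes. Neurons draw most of their ATP from this system. In other cells, low oxygen is known to switch Cox4i1 to Cox4i2 and to raise Ndufa4l2, a relative of Ndufa4, and thyroid hormone is known to raise respiratory genes in liver and muscle.

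Values are the authors' read counts scaled by library size with the TMM method (trimmed mean of M values), written CPM below, and the depth recovered from them was 17182338 to 33937842 reads a library. The 16 neuron markers were all present, and their summed value was 8623 to 9385 CPM in normoxia, 6921 to 7420 CPM in hypoxia and 6798 to 6972 CPM with T3. Of these 16 markers 1 was higher and 4 were lower in hypoxia than in normoxia, where 14.3% of all tested genes were higher and 19.3% lower. With T3 against hypoxia 1 was higher and 2 were lower, where 2.73% and 3.75% of all tested genes were. The median log2 change of the markers was -0.039 in hypoxia against normoxia and -0.020 with T3 against hypoxia. The sum fell mostly through Tubb3, a neuronal tubulin, which had 2262 to 2578 CPM in normoxia, 922 to 1357 CPM in hypoxia and 563 to 838 CPM with T3. The 10 astrocyte markers summed to 182 to 281 CPM in normoxia, 195 to 366 CPM in hypoxia and 249 to 344 CPM with T3. The 9 oligodendrocyte lineage markers summed to 41.2 to 144, 80.1 to 214 and 133 to 189 CPM, and the 8 progenitor markers to 18.6 to 111, 52.7 to 153 and 81.0 to 146 CPM, in the same order. Most of the astrocyte sum was Slc1a2, with a log2 change of 0.030 in hypoxia against normoxia. The tested astrocyte, oligodendrocyte lineage and progenitor markers had median log2 changes of 0.93, 0.97 and 0.66 in that comparison. With T3 against hypoxia these medians were 0.068, 0.018 and 0.053. Of these markers Aldoc (1.94) and Mbp (0.37) were called higher in hypoxia, and none lower. The 8 microglia and the 7 endothelium markers each summed to 2.27 CPM or less in every library, the 11 pericyte and smooth muscle markers to at most 15.3 CPM and the 6 fibroblast markers to at most 31.6 CPM. Ribosomal RNA read as Rn45s took 3.25% to 4.21% of the column in normoxia, 1.04% to 1.33% in hypoxia and 1.04% to 2.65% with T3. The part of these differences in the results below was not tested, and in bulk RNA fewer cells of a type and less RNA per cell cannot be told apart.

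The first comparison, hypoxia against normoxia, asks how neurons change in low oxygen. Of the 77 members, 34 were higher and 1 was lower in hypoxia, and 42 did not pass the test (limma on log2(CPM + 1) over all 9 libraries, Benjamini-Hochberg adjusted p under 0.05). Among all 12923 tested genes 33.6% were called, 14.3% higher and 19.3% lower, so the share of members called higher, 44.2%, stood above the background and the share called lower, 1.30%, below it. The median log2 change of the members was 0.17, against -0.00076 over all tested genes, and 66 of 77 changes were above 0. The groups did not overlap for 47 members that were higher and 5 that were lower in hypoxia, against 20.7% and 27.0% of all genes. The changes were small: the largest, that of Cox7b, was 1.35-fold. The number of members called depended on single libraries. It was 18 without normoxia 1, 19 without normoxia 2, 21 without hypoxia 7 and 16 without hypoxia 9. Counts of all genes in these fits are not given here, so a dependence particular to the members is not shown. In each of 20 alternative settings 14 of the 35 calls were kept. With columns rescaled to 1 common sum, 62 members were called, each of them higher, and the all-gene median was 0.13. Of all 12923 genes 3974 were then higher and 1232 lower, against 1846 and 2497 with the columns as deposited. The members' median stood 0.17 above that of all genes under both scalings.

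**Figure D1:**
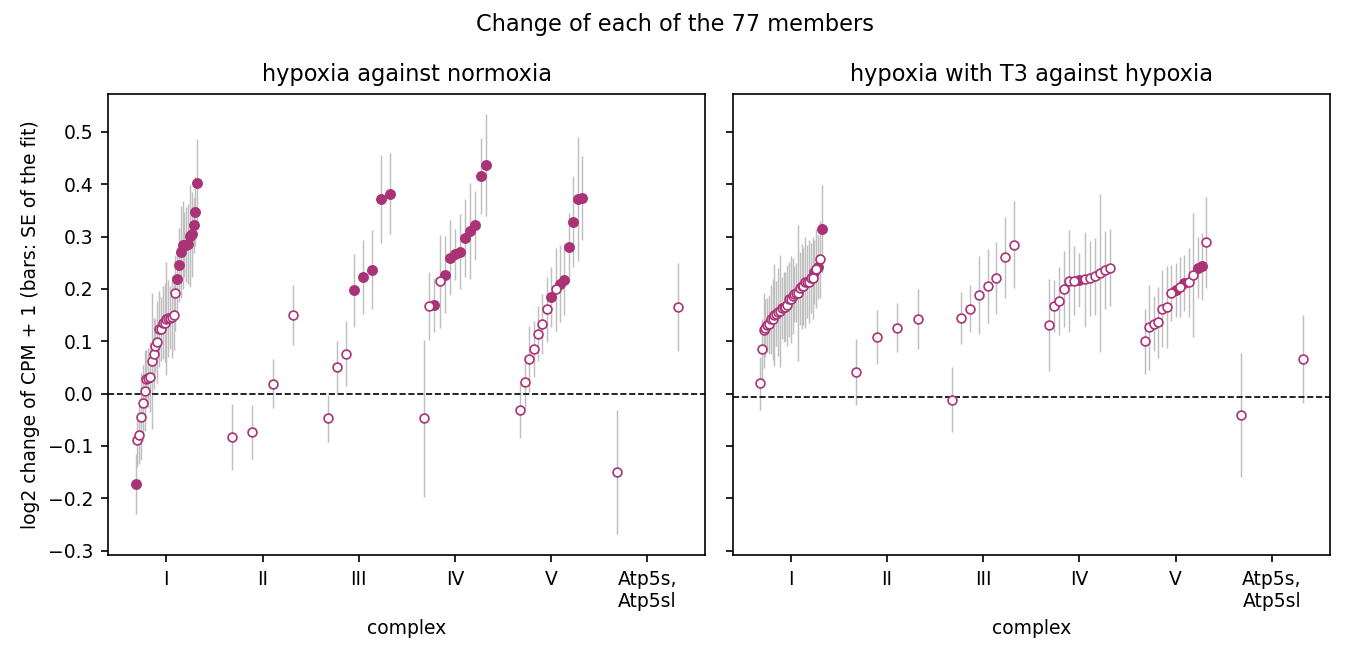
Log2 change of CPM + 1 for each of the 77 members, by complex and sorted by size (vertical axis, with the SE of the fit), in hypoxia against normoxia (left) and hypoxia with T3 against hypoxia (right). Filled points passed the test, open points did not, and the dashed line is the median of all tested genes: most points lie above it in both panels, and complex II lies nearest to it.

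Complex I takes electrons from NADH and is the largest of the 5 complexes. In hypoxia 12 of its 35 members were higher and 1 was lower, with a median log2 change of 0.14. Ndufv3, an accessory subunit of the NADH-binding arm, had 60.8, 59.3 and 59.9 CPM in normoxia 1, 2 and 3, 74.7, 76.5 and 74.4 CPM in hypoxia 7, 8 and 9, and 91.3, 83.1 and 83.6 CPM in T3 11, 12 and 13. The 3 groups did not overlap, and hypoxia exceeded normoxia by 0.32 (SE 0.05, adjusted p = 0.00133) on the log2 scale by limma. Ndufa12, another accessory subunit of that side of the complex, had 56.7, 50.6 and 55.4 CPM in normoxia and 71.5, 66.0 and 70.2 CPM in hypoxia. Every hypoxia library lay above every normoxia library, a log2 change of 0.35 (SE 0.07, adjusted p = 0.0028). Ndufb4, an accessory subunit of the membrane arm, had the largest change in complex I, with 29.9, 31.7 and 37.4 CPM in normoxia and 46.8, 41.9 and 42.8 CPM in hypoxia. Its log2 change was 0.40 (SE 0.08, adjusted p = 0.00476).

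The member of complex I that was lower in hypoxia is Ndufs1, a core subunit of the electron-carrying arm that holds iron-sulfur clusters. It had 87.9, 77.2 and 83.4 CPM in normoxia 1, 2 and 3, 75.3, 72.8 and 71.8 CPM in hypoxia 7, 8 and 9, and 75.9, 78.8 and 78.6 CPM in T3 11, 12 and 13. The hypoxia libraries lay below the normoxia libraries, with a log2 change of -0.17 (SE 0.06, adjusted p = 0.0386). This call was lost in 6 of 9 fits that left out 1 library, at an adjusted p of 0.0552 without hypoxia 7, 0.059 without T3 12, 0.0875 without normoxia 3, 0.0877 without hypoxia 8, 0.11 without hypoxia 9 and 0.13 without normoxia 1. With equal column sums, where the median of all genes was 0.13, its change was -0.034 and did not pass. The call was also lost by edgeR (adjusted p = 0.0573), with only the 2 groups compared (0.0627) and with no trend (0.0658). It passed in the other settings with all libraries, among them DESeq2 (0.038).

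Complex II, succinate dehydrogenase, is shared with the citric acid cycle, and none of its 4 members was called in hypoxia (1 higher and 0 lower at an unadjusted p under 0.05, and the same counts by edgeR and by DESeq2). Sdha, the flavoprotein that oxidises succinate, had 204, 201 and 210.3 CPM in normoxia and 215, 202 and 207 CPM in hypoxia. The groups overlapped, with a log2 change of 0.019 (adjusted p = 0.783). Sdhb, the iron-sulfur subunit, also overlapped, at 104, 99.1 and 104 CPM in normoxia and 96.7, 93.6 and 101 CPM in hypoxia and a log2 change of -0.073 (adjusted p = 0.291). The membrane anchors Sdhc and Sdhd had log2 changes of -0.083 (adjusted p = 0.335) and 0.15 (adjusted p = 0.0638). For Sdhd every hypoxia library lay above every normoxia library, and for Sdhc every one lay below. The median of the 4 was -0.027. With equal column sums it was 0.11, below the 0.13 of all genes, so it lay 0.027 and 0.018 below the all-gene median under the 2 scalings.

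Complex III hands electrons to cytochrome c, and 5 of its 8 members were higher in hypoxia, with none lower (0 also at an unadjusted p under 0.05, by edgeR and by DESeq2) and a median log2 change of 0.21. The 5 were Uqcr10, Uqcrh, Uqcr11, Uqcrb and Uqcrq, the small subunits. Uqcr10 had 43.4, 43.4 and 51.2 CPM in normoxia and 59.5, 59.9 and 60.8 CPM in hypoxia, a log2 change of 0.38 (SE 0.08, adjusted p = 0.00397). Uqcrh, the hinge protein next to cytochrome c1, had 62.6, 65.9 and 72.4 CPM in normoxia and 83.1, 83.6 and 94.2 CPM in hypoxia. Neither gene overlapped between the groups, and the log2 change of Uqcrh was 0.37 (SE 0.08, adjusted p = 0.00668). Uqcr11 rose by 0.22 (SE 0.07, adjusted p = 0.0318) on the log2 scale, a call lost without normoxia 1 (adjusted p = 0.0921), normoxia 2 (0.0967), hypoxia 8 (0.0639) or hypoxia 9 (0.112). The core proteins did not pass: Uqcrc1 had a log2 change of -0.048 (adjusted p = 0.434) and Uqcrc2 one of 0.051 (adjusted p = 0.455). Uqcrfs1, the Rieske iron-sulfur protein, had one of 0.076 (adjusted p = 0.366).

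Complex IV, cytochrome c oxidase, is where oxygen is reduced, and 10 of its 13 members were higher in hypoxia. None was lower (0 also at an unadjusted p under 0.05, by edgeR and by DESeq2), and the median log2 change, 0.27, was the highest of the 5 complexes. Cox7b, a small membrane subunit, had 67.1, 76.7 and 86.7 CPM in normoxia and 106, 98.4 and 107 CPM in hypoxia. The lowest hypoxia library lay above the highest normoxia library, and the log2 change was 0.44 (SE 0.10, adjusted p = 0.00648). Cox5b, a zinc-binding subunit on the matrix side, had 119, 114 and 122 CPM in normoxia and 142, 137 and 148 CPM in hypoxia, with no overlap and a change of 0.27 (SE 0.05, adjusted p = 0.00231). The 3 members not called were Cox5a, Cox8a and Cox6a2, with log2 changes of 0.21 (adjusted p = 0.0827), 0.17 (adjusted p = 0.0664) and -0.048 (adjusted p = 0.829).

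Complex V makes ATP, and 7 of its 15 members were higher in hypoxia, with none lower (0 also at an unadjusted p under 0.05, by edgeR and by DESeq2) and a median log2 change of 0.18. Atp5j2, a small subunit of the membrane part, had 63.1, 63.2 and 70.6 CPM in normoxia and 85.9, 82.8 and 87.0 CPM in hypoxia. The groups did not overlap, and the change was 0.37 (SE 0.08, adjusted p = 0.00545). Atp5h, a subunit of the peripheral stalk, changed from 58.7 ± 2.03 to 71.5 ± 4.34 CPM (SD, n = 3), with a log2 change of 0.28 (adjusted p = 0.00878) by limma. Atp5l, another small membrane subunit, had a log2 change of 0.33 (adjusted p = 0.0143), a call lost without normoxia 1 (0.053) or hypoxia 9 (0.0579). Neither Atp5a1 nor Atp5b was called. Atp5a1, the alpha subunit, had 815, 774 and 794 CPM in normoxia and 786, 749.6 and 797 CPM in hypoxia, and Atp5b, the beta subunit, 981, 936 and 988 CPM in normoxia and 994, 951 and 1006 CPM in hypoxia. Both overlapped between the groups, with log2 changes of -0.031 (adjusted p = 0.675) and 0.023 (adjusted p = 0.758). Neither Atp5s nor Atp5sl was called, with changes of -0.15 (adjusted p = 0.351) and 0.17 (adjusted p = 0.151).

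**Figure D2:**
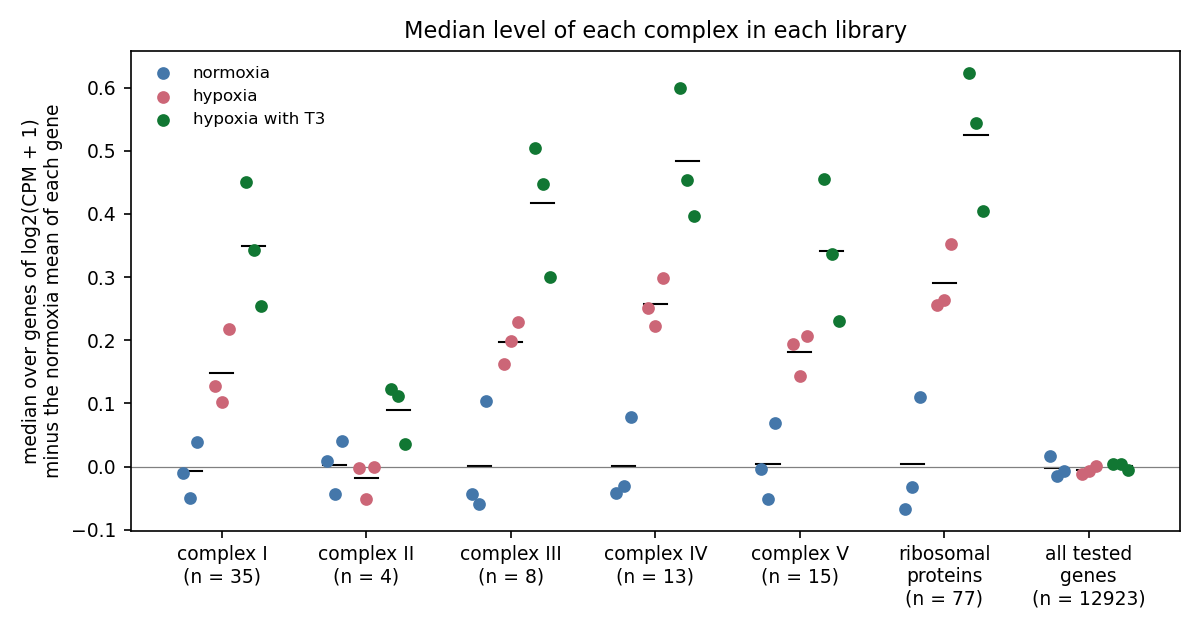
Median over the genes of each complex of log2(CPM + 1) minus each gene's normoxia mean (vertical axis), in each of the 9 libraries (points, coloured by group; short lines are group means), with ribosomal protein genes and all tested genes at the right. In complexes I, III, IV and V and the ribosomal protein genes the 3 groups do not overlap, in complex II normoxia overlaps with both other groups, and all tested genes lie near 0.

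The paralogs known to be exchanged in low oxygen were examined next. Cox4i1, the common form of subunit 4 (chr8:120668222-120674207, mm10), had 146, 156 and 169 CPM in normoxia 1, 2 and 3, 192, 195 and 202 CPM in hypoxia 7, 8 and 9, and 242, 234 and 209.7 CPM in T3 11, 12 and 13. All 3 groups were apart, and the change in hypoxia was 0.32 (SE 0.07, adjusted p = 0.0041). Cox4i2 (chr2:152754173-152765037), the form known to be raised by low oxygen in other cells, had 0 reads in each normoxia library, 1 read in each hypoxia library and 1, 2 and 0 reads in T3 11, 12 and 13. These are at or below 3 reads, the most that a count of 0 allows, which equals 0.0906 to 0.170 CPM in these libraries, so no fold is given. Cox4i1 had 3394 to 7041 reads in the same hypoxia and T3 libraries, and no rise of Cox4i2 to a level near that of Cox4i1 was seen. Ndufa4 (chr6:11900292-11907497) had 100.04, 106 and 119 CPM in normoxia 1, 2 and 3, 146, 139 and 148 CPM in hypoxia 7, 8 and 9, and 181, 171 and 155 CPM in T3 11, 12 and 13. It rose by 0.42 (SE 0.07, adjusted p = 0.0019). Ndufa4l2 (chr10:127514967-127517154) had 5, 6 and 5 reads in normoxia, 0, 5 and 3 in hypoxia and 4, 11 and 2 with T3, at most 0.366 CPM. In a fit with no filter on low values, hypoxia against normoxia gave an adjusted p of 0.198 for Cox4i2 and 0.405 for Ndufa4l2. Some other genes known to respond to low oxygen did change in these libraries. Of 14 hypoxia-linked mitochondrial regulators and targets 6 were higher, 42.9% of the list against 14.3% of all genes. None was lower (1 at an unadjusted p under 0.05, 0 by edgeR and by DESeq2), against 19.3% of all genes. The 6 included Pdk1, a kinase that inhibits pyruvate dehydrogenase, with a log2 change of 1.78. They also included Higd1a, an inner-membrane protein that binds respiratory complexes, with 1.62. The other 8 were not called, among them Bnip3l (0.11), Chchd4 (0.13) and Hif1a (-0.073).

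**Figure D3:**
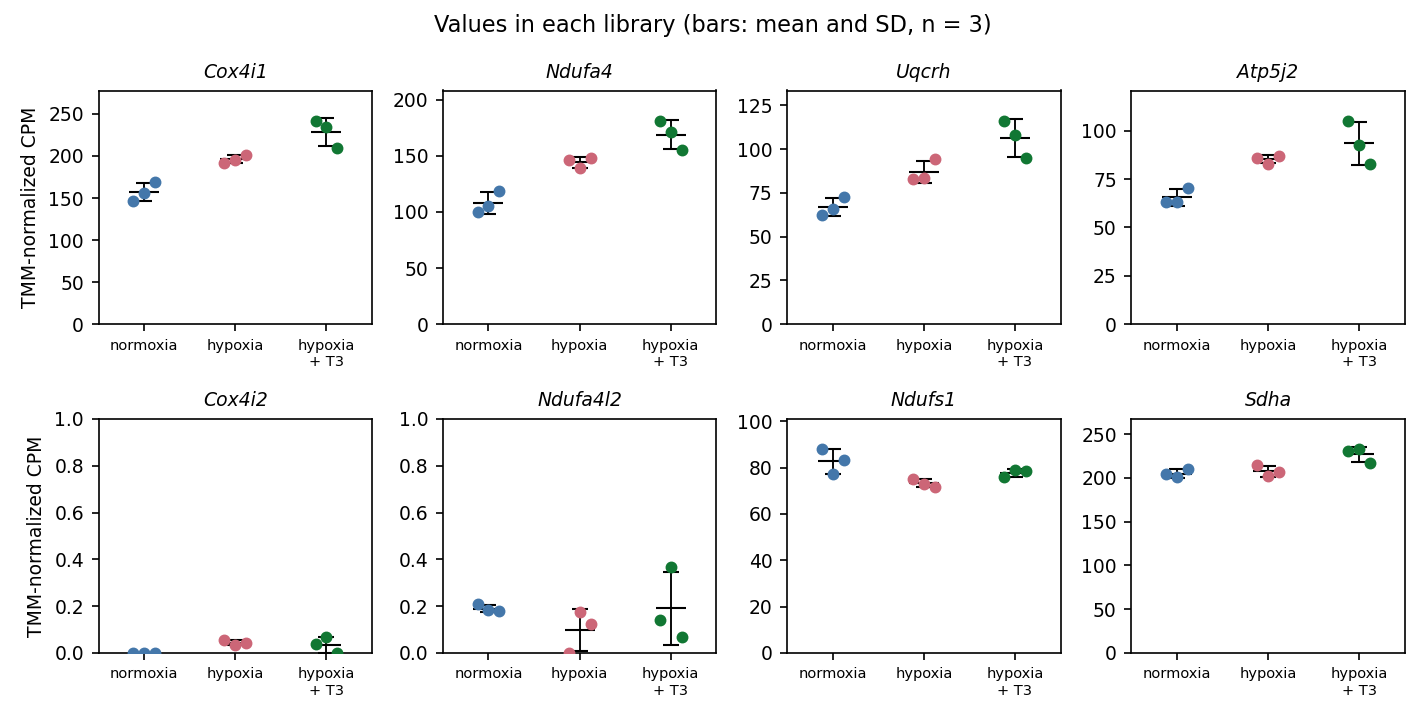
CPM in each library (points) with mean and SD (bars, n = 3) for 8 genes in normoxia, hypoxia and hypoxia with T3; each panel has its own linear axis from 0. Cox4i1, Ndufa4, Uqcrh and Atp5j2 lie higher in hypoxia than in normoxia, Cox4i2 and Ndufa4l2 reach at most 0.0665 and 0.366 CPM, Ndufs1 lies lower in hypoxia and Sdha overlaps between those groups.

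Several subunits have more than 1 gene, and the forms were compared per kilobase of transcript (median length of the coding transcripts), since CPM grows with length. Cox6a1 stood at 379.9 ± 18.1 CPM per kb in normoxia (SD, n = 3) and Cox6a2, the heart and muscle form, at 8.24 ± 0.402. Cox6b2, Cox7a1 and Cox8b, forms best known from testis, muscle and brown fat, were below the threshold, whereas Cox6b1, Cox7a2 and Cox8a had 332, 112 and 243 CPM per kb in normoxia. Cox7a2l, which takes part in joining complexes III and IV, had 77.4 CPM per kb. In hypoxia Cox6a1, Cox6b1, Cox7a2 and Cox7a2l rose, with log2 changes of 0.17 (adjusted p = 0.027), 0.26 (adjusted p = 0.0176), 0.31 (adjusted p = 0.0238) and 0.23 (adjusted p = 0.0349). Each of these 4 calls was lost without normoxia 2 (0.0864, 0.0668, 0.0719 and 0.126) and without hypoxia 9 (0.0893, 0.0629, 0.0549 and 0.115). All but Cox6b1 were also lost without hypoxia 7 (0.0594, 0.0677 and 0.077), Cox6a1 and Cox7a2 without normoxia 1 (0.0737 and 0.0852), and Cox7a2l without T3 12 (0.052). Atp5g1, Atp5g2 and Atp5g3 encode the same mature c subunit of the ATP synthase rotor and had 45.5 ± 2.06, 105 ± 4.78 and 195 ± 11.6 CPM per kb in normoxia. The lengths used were 2675.5, 586 and 718.5 bases. Without division by length the means were 122, 61.7 and 140 CPM, so the order of Atp5g1 and Atp5g2 depends on the length used. Which transcripts the neurons expressed was not tested. Of the 3 only Atp5g3 was called in hypoxia, at 0.18 (adjusted p = 0.0308), and not without normoxia 1 (0.089), normoxia 2 (0.0994), hypoxia 7 (0.0731) or hypoxia 9 (0.0891). Atp5g1 and Atp5g2 had changes of 0.066 (adjusted p = 0.445) and 0.16 (adjusted p = 0.0647). The estimated counts of such families may be divided among near-identical copies and pseudogenes.

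The second comparison, hypoxia with T3 against hypoxia, asks what the hormone adds in low oxygen. Of the 77 members 8 were higher and none lower with T3, against 6.48% of all genes called, 2.73% higher and 3.75% lower. At an unadjusted p under 0.05, 53 members were higher and 0 lower, and of all 12923 genes 1632 were higher and 1959 lower. By edgeR 6 members were higher and 0 lower, and of 12888 genes 332 were higher and 455 lower. By DESeq2 28 members were higher and 0 lower, and of the same 12888 genes 771 were higher and 971 lower. The median log2 change of the members was 0.19, against -0.0064 over all tested genes, and 75 of 77 changes were above 0. The groups did not overlap for 53 members that were higher and 0 that were lower with T3, against 15.8% and 15.8% of all genes. The calls lie close to the threshold, and none of the 8 was kept in all 20 alternative settings. Their number was 0 without normoxia 2, hypoxia 7, hypoxia 8, T3 11 or T3 12, 4 without normoxia 1 or normoxia 3, 7 without hypoxia 9, and 32 without T3 13. The median change moved less, from 0.15 without T3 11 to 0.23 without T3 13. Counts of all genes in the fits that left out 1 library are not given here. This comparison and the first share the hypoxia libraries, so their values are given side by side and not correlated.

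In complex I the called members were Ndufs4, Ndufs6 and Ndufa1, and the median change of the 35 was 0.18. Ndufs4, an accessory subunit whose loss causes a fatal brain disease in mice, had 37.4, 36.3 and 37.6 CPM in normoxia 1, 2 and 3, 38.4, 39.9 and 43.5 CPM in hypoxia 7, 8 and 9, and 48.2, 47.8 and 48.2 CPM in T3 11, 12 and 13. The T3 libraries lay close together above all hypoxia libraries, with a change of 0.24 (SE 0.06, adjusted p = 0.0436). Ndufs6, a zinc-binding accessory subunit, had 43.5, 44.9 and 43.0 CPM in hypoxia and 52.9, 52.6 and 49.5 CPM in hypoxia with T3 and changed by 0.23 (SE 0.06, adjusted p = 0.0486). Ndufa1, a small membrane subunit, had 37.4, 36.3 and 42.2 CPM in hypoxia and 52.6, 47.6 and 44.7 CPM in hypoxia with T3 and changed by 0.32 (SE 0.08, adjusted p = 0.0497). The groups did not overlap for either. Without single libraries the adjusted p reached 0.15 for Ndufs4 (without hypoxia 8), 0.177 for Ndufs6 (without T3 11) and 0.193 for Ndufa1 (without T3 11). Ndufs1 lay above every hypoxia library in each T3 library, with a change of 0.085 (adjusted p = 0.369), which did not pass.

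No member of complex II or III was called with T3. At an unadjusted p under 0.05, 2 members of complex II and 7 of complex III were higher; DESeq2 called 0 and 4, and edgeR 0 and 0. The medians were 0.12 and 0.20. Sdha had 215, 202 and 207 CPM in hypoxia and 230.4, 232 and 217 CPM in hypoxia with T3, without overlap, and a change of 0.13 (adjusted p = 0.114). Sdhb, Sdhc and Sdhd had changes of 0.11 (adjusted p = 0.197), 0.041 (adjusted p = 0.725) and 0.14 (adjusted p = 0.134). In complex III the values of Uqcrh in the T3 libraries, 116, 108 and 94.9 CPM, lay above the highest hypoxia value of 94.2 CPM, with a change of 0.28 (adjusted p = 0.0604). Uqcrfs1 was the member of complex III whose change was not above 0, at -0.012 (adjusted p = 0.93).

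In complex IV the called member was Cox6a1, which had 212, 210.0 and 229 CPM in normoxia 1, 2 and 3, 243, 238 and 250.3 CPM in hypoxia 7, 8 and 9, and 298, 276 and 277 CPM in T3 11, 12 and 13. The lowest T3 library stood above the highest hypoxia library, and the change was 0.22 (SE 0.05, adjusted p = 0.0375), with an adjusted p of up to 0.151 when 1 library was left out (without T3 11). The median change of the 13 members was 0.22, and each of the 13 changes was above 0. Cox4i1 and Ndufa4 had T3 values above all hypoxia values, with changes of 0.22 (adjusted p = 0.0654) and 0.22 (adjusted p = 0.0797).

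Complex V had 4 of the 8 calls: Atp5a1, Atp5b, Atp5g1 and Atp5g3. Atp5a1 had 786, 749.6 and 797 CPM in hypoxia and 945, 915 and 841 CPM in hypoxia with T3, a change of 0.21 (SE 0.05, adjusted p = 0.0435). Atp5b had 994, 951 and 1006 CPM in hypoxia and 1180.3, 1137 and 1069.8 CPM in hypoxia with T3, a change of 0.20 (SE 0.05, adjusted p = 0.0465). For both Atp5a1 and Atp5b all T3 libraries lay above all hypoxia libraries, while normoxia and hypoxia overlapped. Atp5g1 and Atp5g3 changed by 0.24 (adjusted p = 0.047) and 0.24 (adjusted p = 0.0384), and Atp5g2 had a change of 0.099 (adjusted p = 0.324), which did not pass. When 1 library was left out, the adjusted p reached 0.175 for Atp5a1, 0.181 for Atp5b, 0.181 for Atp5g1 and 0.155 for Atp5g3, each without T3 11.

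The promoters of 3 of these 8 genes are shown because letters known as sites of respiratory gene regulators fall in them; the 3 were chosen after the matches were seen. Each line gives the 250 bases before the start (RefSeq, GRCm38.p6, minus strand, written 5′ to 3′), with matches in capitals: GCGC and TGCGC with any base between them (nuclear respiratory factor 1, NRF1), CCGGAAG (ETS factors such as GABP) and ACGTG or GCGTG (hypoxia-inducible factors), each on both strands. They lie at chr5:115348959-115349208 (Cox6a1), chr13:73328483-73328732 (Ndufs6) and chr2:73911327-73911576 (Atp5g3).
Cox6a1: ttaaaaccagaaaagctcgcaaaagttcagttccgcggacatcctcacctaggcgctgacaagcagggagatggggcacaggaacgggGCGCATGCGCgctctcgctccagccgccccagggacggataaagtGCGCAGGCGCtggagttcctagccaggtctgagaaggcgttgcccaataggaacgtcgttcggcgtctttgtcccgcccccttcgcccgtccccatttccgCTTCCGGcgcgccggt
Ndufs6: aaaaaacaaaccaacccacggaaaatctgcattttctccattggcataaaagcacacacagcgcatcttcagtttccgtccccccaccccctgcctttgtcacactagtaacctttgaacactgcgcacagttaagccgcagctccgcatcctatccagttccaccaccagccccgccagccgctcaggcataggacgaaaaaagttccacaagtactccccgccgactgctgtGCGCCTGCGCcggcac
Atp5g3: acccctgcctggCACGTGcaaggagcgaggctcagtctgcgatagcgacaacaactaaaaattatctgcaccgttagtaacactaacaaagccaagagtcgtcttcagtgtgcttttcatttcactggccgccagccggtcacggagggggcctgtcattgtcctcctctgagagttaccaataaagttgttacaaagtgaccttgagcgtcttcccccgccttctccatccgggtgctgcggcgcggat
Cox6a1 holds 2 NRF1 matches and 1 ETS match, Ndufs6 holds 1 NRF1 match, and in Atp5g3 the letters ACGTG occur once on each strand of 1 palindrome. No match overlaps one of another motif. In GENCODE M21, the annotation used for lengths, Cox6a1 starts at chr5:115348981 and Ndufs6 at chr13:73328542, both inside these windows. The ETS match of Cox6a1 and the NRF1 match of Ndufs6, each 16 bases before the RefSeq start, thus lie within the genes as GENCODE gives them.

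Of the 77 members 62 matched 67 RefSeq promoters. Among those not matched were Atp5a1, Cox4i1, Ndufs1 and Sdhc. The NRF1 letters were in 20.9% of the members' promoters and in 3.74% of all 32851 promoters of the same length, and the ETS letters in 17.9% and 6.91%. The letters AAGATGGC (YY1) were in 1.49% and 1.56%, and ACGTG or GCGTG in 50.7% and 38.6%. All 32851 promoters were counted whether or not their genes were expressed here, whereas every member was. The shares were not compared with those of other expressed genes. The 13 members with the NRF1 letters had a median log2 change of 0.16 in hypoxia and 0.19 with T3, and the 49 matched members without them 0.19 and 0.19. The 32 members with ACGTG or GCGTG had medians of 0.21 and 0.18, and the 30 without 0.14 and 0.20. A match is a run of letters, and binding was not measured.

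The third comparison, hypoxia with T3 against normoxia, shares its libraries with the other two. In it 65 of 77 members were higher and none lower (0 lower also at an unadjusted p under 0.05, by edgeR and by DESeq2), against 55.1% of all genes called, 25.5% higher and 29.5% lower. The median log2 change was 0.36, against 0.0016 over all genes. The groups did not overlap for 66 members that were higher and 2 that were lower, Ndufa9 and Atp5s, against 29.8% and 33.0% of all genes. By complex the calls were 28 of 35 in complex I, 2 of 4 in II, 7 of 8 in III, 12 of 13 in IV and 15 of 15 in V. Uqcrh had the largest change, from 67.0 ± 4.95 to 106 ± 10.6 CPM (SD, n = 3), 0.66 (SE 0.08, adjusted p = 8.22e-05) by limma. In complex II, Sdha changed by 0.14 (adjusted p = 0.0224) and Sdhd by 0.29 (adjusted p = 0.00132), and the call of Sdha was lost without normoxia 2 (0.0703), T3 11 (0.0658) or T3 12 (0.0907). Of the 65 calls 58 were kept in all 20 alternative settings, and those lost in some included Uqcrc1 and Atp5a1. Uqcrc1 changed by 0.11 (adjusted p = 0.0487) and lost its call without every library but hypoxia 8, with an adjusted p of up to 0.13 (without T3 11). Atp5a1 changed by 0.18 (adjusted p = 0.0146), a call lost without T3 11 (0.0617) or T3 12 (0.0572).

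The summed value of the 77 members followed the same order by group. It was 7412, 7203 and 7767 CPM in normoxia 1, 2 and 3, 8193, 7936 and 8367 CPM in hypoxia 7, 8 and 9, and 9828, 9356 and 8759.9 CPM in T3 11, 12 and 13. No group overlapped another. Complex V made up the largest part, 3088 ± 99.0 CPM in normoxia, 3263 ± 102 CPM in hypoxia and 3745 ± 226 CPM with T3 (SD, n = 3). Complex IV summed to 1404 ± 83.2, 1690.5 ± 47.2 and 1954 ± 118 CPM. Members varied together between the libraries of a group: T3 11 was the highest T3 library for 66 of 77 members and T3 13 the lowest for 61, normoxia 3 was the highest normoxia library for 53, and hypoxia 9 the highest hypoxia library for 51. Cytosolic ribosomal protein genes, another set of short abundant transcripts, had T3 11 highest for 73 and T3 13 lowest for 76 of 77 tested genes, and normoxia 3 and hypoxia 9 highest for 72 and 64. The coefficient of variation of a member within a group had a median of 5.93% in normoxia, 3.84% in hypoxia and 6.59% with T3.

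The ribosomal protein genes also changed in the same direction. In hypoxia 60 of 77 were higher (77.9%, against 14.3% of all genes), with a median log2 change of 0.29. With T3 against hypoxia 17 were higher (22.1%, against 2.73% of all genes), with a median of 0.24. None was lower in either comparison (0 at an unadjusted p under 0.05, by edgeR and by DESeq2). Members are short: their median transcript length was 743.5 bases over the 76 with a length, against 2803 bases over 12298 tested genes. Across members the change and log2 length had a Pearson r of -0.58 in hypoxia and -0.42 with T3, and across all tested genes -0.26 and -0.34; genes of 1 fit share libraries and are not independent replicates. In hypoxia, the 40 members under 750 bases had a median change of 0.24, against 0.16 for other genes of that length, leaving out ribosomal protein genes. From 750 to 1500 bases the medians were 0.14 for 21 members and 0.086 for other genes, and from 1500 to 3000 bases 0.023 for 15 members and 0.030 for other genes. With T3 against hypoxia the members' medians in these classes were 0.20, 0.19 and 0.14, and those of the other genes 0.11, 0.073 and 0.026. How far length accounts for the members' changes was not tested.

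**Figure D4:**
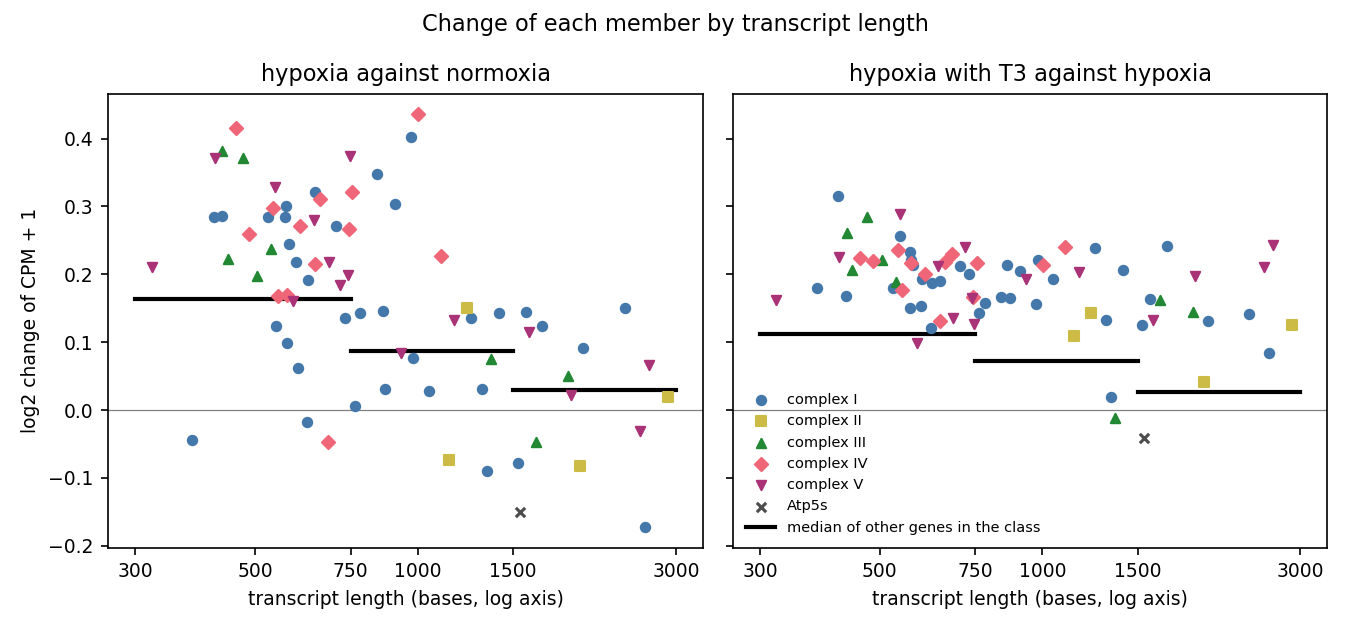
Log2 change of CPM + 1 of 76 members (points, by complex) against transcript length in bases (log axis), in hypoxia against normoxia (left) and hypoxia with T3 against hypoxia (right). Thick lines are medians of other tested genes of the same length class, without ribosomal protein genes. In hypoxia long members lie near those lines, at medians of 0.023 and 0.030 from 1500 to 3000 bases, and with T3 most members of every class lie above them.

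Other genes of the pathway were counted from lists that do not overlap the members. Of 5 subunits or partners that the name patterns miss, 3 were higher in hypoxia, 60% of the list against 14.3% of all genes. They were Usmg5, a small ATP synthase subunit (0.49), Ndufab1, the acyl carrier protein of complex I (0.40), and Cycs, cytochrome c (0.24). Atpif1, the ATP synthase inhibitor, and Cyc1, cytochrome c1, had changes of 0.16 and -0.076 and did not pass. None of the 5 was called with T3 against hypoxia (3 higher and 0 lower at an unadjusted p under 0.05, 2 by DESeq2, 0 by edgeR). Of all genes 2.73% were called higher and 3.75% lower in that comparison. Of 44 assembly factors, which build the complexes, 9 were higher and 4 lower in hypoxia, with a median of 0.079, which is 20.5% and 9.09% of the list against 14.3% and 19.3% of all genes. Sco2, a copper chaperone of complex IV, rose by 0.65 on the log2 scale (adjusted p = 0.00106), Ndufaf7 by 0.27 and Tmem70, needed for the ATP synthase, by 0.31, while Ndufaf3 fell by 0.37. With T3 against hypoxia none of the 44 was called (5 higher and 1 lower at an unadjusted p under 0.05, 0 by DESeq2 and by edgeR), and the median was 0.019. The shares of all genes were again 2.73% higher and 3.75% lower.

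The citric acid cycle feeds electrons into complexes I and II. In hypoxia all 14 of its genes had changes below 0, with a median of -0.073, and 2 were lower: Ogdh, of the oxoglutarate dehydrogenase (-0.29, adjusted p = 0.000941), and Sucla2, of succinyl-CoA synthetase (-0.19, adjusted p = 0.0113). These 2 are 14.3% of the list, against 19.3% of all genes called lower. With equal column sums the median was 0.062, with 11 of the 14 changes above 0, while that of all genes was 0.13, so the list's median lay 0.072 and 0.068 below that of all genes under the 2 scalings. With T3 against hypoxia 2 were higher, Idh3b (0.25) and Mdh2 (0.21), which is 14.3% of the list against 2.73% of all genes. Of 16 regulators of mitochondrial biogenesis, 3 were lower and 1 higher in hypoxia, and the 18.8% lower is near the 19.3% of all genes, so this count is not a result about the list. Esrrg, an orphan nuclear receptor, fell by 1.16 on the log2 scale, the corepressor Nrip1 by 0.72 and the coactivator Ppargc1a by 0.48. Tfb2m, a mitochondrial transcription factor, rose by 0.22. With T3 against hypoxia Nrip1 fell by 0.71 and Esrrg by 0.61, which is 12.5% of the list against 3.75% of all genes. None of the 16 was higher (1 at an unadjusted p under 0.05, 0 by DESeq2 and by edgeR), against 2.73% of all genes.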

How the data were processed

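Polyadenylated RNA was measured in 9 libraries, 3 in each of 3 groups, named by their column headers. The deposited values are a signal the authors scaled, TMM-normalized CPM per gene symbol; the mm10 genome, RSEM 1.2.15, Bowtie2 2.1.0 and an edgeR of unnamed version are listed in the submitters' processing notes, and the annotation is not given in the sources used here. Within 0.01 reads, 99.89% to 99.996% of the values of a column were whole multiples of 1 read (0.0302 to 0.0565 CPM), which gave recovered reads. They measure counting error only. The 35 rows off this step hold no member; 1 unnamed column was not used.

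Genes above 1 in at least 3 libraries (12923) were fitted with limma 3.58.1 in R 4.3.3 on log2(value + 1), with 6 residual degrees of freedom and a variance trend in eBayes, two-sided, adjusted by Benjamini-Hochberg over all of them, with a threshold of 0.05. Log2 changes are on that scale and understate low genes. Alternatives were pseudocounts 0.1 and 5, a filter at a mean of at least 5, none at all, only the groups compared, 2 other scalings, no trend, edgeR 4.0.16 and DESeq2 1.42.0 on recovered reads, leaving out each library, and, added after seeing the data, leaving out the 35 rows. Members called in hypoxia against normoxia were 42 by edgeR and 39 by DESeq2, and with T3 against hypoxia 6 and 28. Of 12888 genes tested in hypoxia against normoxia, edgeR called 2147 higher and 2143 lower, and DESeq2 2027 and 2429. The fit was tested on simulated data scaled by their own library totals. A first simulation, scaled by the factors of the real columns, gave many more false calls and was replaced, so the test does not cover a library whose scaling is off. Transcript lengths are from GENCODE M21.

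The members, lists and tests were chosen with earlier results of these data known. Named are the paralogs and other isoforms, complex II, the 3 smallest adjusted p per complex and direction in the first 2 comparisons, the extreme changes of each complex in hypoxia, and up to 4 genes of each other list. The other members of complexes I, III, IV and V given with a value, Ndufa9, Atp5s, Atp5sl and Tubb3 were chosen after their values were seen. Values for some genes are not reported here.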

Additional observations from a re-analysis of the deposited data

How the results depend on the processing

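Left as deposited, 35 members were called in hypoxia against normoxia, and 62 with equal column sums. Leaving out 1 library gave 16 to 39. The other settings gave 24 to 42. Of all 12923 genes 1846 were higher and 2497 lower as deposited, and 3974 and 1232 with equal column sums. For hypoxia with T3 against hypoxia, where 8 were called, the count was 0 with no filter, with only the 2 groups compared and with no trend, 14 with a mean of at least 5, 3 with equal column sums, 5 with median-of-ratios size factors and 28 with DESeq2. Leaving out 1 library gave 0 to 32. Over all genes in this comparison, 353 were called higher as deposited, 284 with equal column sums, 304 with median-of-ratios size factors and 771 with DESeq2. For hypoxia with T3 against normoxia all settings gave 58 to 72 calls, against 65. All-gene counts with no filter, a mean of at least 5, only the groups compared, no trend or 1 library left out are not given here. Shifts particular to the members are therefore not shown for those settings. The cause of these shifts was not tested.

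The sign of a named member changed only where it was not called. In hypoxia against normoxia with equal column sums the changes were 0.056 for Sdhc, 0.092 for Uqcrc1, 0.071 for Cox6a2, 0.11 for Atp5a1 and 0.066 for Sdhb, each below the all-gene median of 0.13 under that scaling, and so still lower relative to all genes. Leaving out 1 library gave -0.18 to 0.14 for Cox6a2, -0.0014 to 0.047 for Atp5b and -0.0049 to 0.038 for Sdha, with the other sign without hypoxia 8, normoxia 2 and hypoxia 7. With T3 against hypoxia Sdhc had -0.00067 (without T3 11) to 0.10. No paired analysis was possible because the headers number hypoxia 7 to 9 and T3 11 to 13, which the titles' replicate numbers do not contain. Depth limits what can be said of folds of Cox4i2 and Ndufa4l2, which had at most 11 reads in a library.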
